A study of Homo sapiens with 9 samples.

Results

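The transcripts of 9 matrix metalloproteinases (MMP1, MMP2, MMP3, MMP7, MMP9, MMP10, MMP12, MMP13 and MMP14) and of their inhibitor TIMP1 were followed across the libraries. These 10 genes were taken by symbol from the 78894 gene identifiers of the tables, and all 10 were found. They were selected on their TPM values in these same libraries, so their levels are given as a description without a test. The cells were CAL27, an established tongue squamous carcinoma line, and by its title the study concerns an enhancer active in this kind of head and neck cancer. Poly-A RNA was sequenced from unedited Control cells (3 samples) and from 3 groups of CRISPR-edited cells called A2ko, A8ko and C9ko (2 samples each), all grown in the same serum-containing medium with no treatment. The labels name neither the edited sequence nor whether a knockout is 1 clone or a pool, so no targeted gene could be checked. The A2ko samples held identical values, as did the A8ko samples, and each pair counts as 1 library. That leaves 7 distinct libraries, with no replicate for A2ko or A8ko. Whether the Control and C9ko samples came from separate cultures is not stated, so their spread may be technical.

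Matrix metalloproteinases are zinc-dependent endopeptidases that cut the extracellular matrix and cell surface proteins. Most are secreted as inactive proenzymes whose propeptide must be removed, some are anchored in the membrane, and tissue inhibitors of metalloproteinases (TIMPs) block the active site. In squamous carcinoma they are studied for the breakdown of basement membrane and collagen during invasion, and many of their promoters carry a binding site for AP-1, the dimer of FOS and JUN proteins.

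Of the 10 genes, 6 lie in 1 cluster on the minus strand of chromosome 11. In GENCODE release 29 on GRCh38 the 6 run from MMP7 to MMP13 over 102520508 to 102955734, or 435 kb. From the low coordinate upwards they are MMP7 (102520508 to 102530753), MMP10 (102770503 to 102780628), MMP1 (102789920 to 102798160), MMP3 (102835801 to 102843803), MMP12 (102862736 to 102875034) and MMP13 (102942995 to 102955734). Outside it lie MMP2 on chromosome 16 (55389700 to 55506691), MMP9 on chromosome 20 (46008908 to 46016561), MMP14 on chromosome 14 (22836557 to 22849027) and TIMP1 on chromosome X (47582313 to 47586789), all on the plus strand. All 10 are annotated as protein coding. The pseudogene WTAPP1 overlaps MMP10, MMP1 and MMP3 on the other strand, and SYN1 overlaps TIMP1 in the same way. Use of strand in the counting is not stated, but no library listed WTAPP1 above 0.0728 TPM or SYN1 above 0.0462.

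Promoter sequence from RefSeq on GRCh38.p14 was matched for 4 of the 10 genes (MMP7, MMP10, MMP14 and TIMP1). The 250 bases before the start are shown for 2 cluster genes that were low in A8ko and C9ko and for MMP14, which was high there. Capitals mark the AP-1 motif TGANTCA, which reads the same on both strands, and the TATA box TATAAA, searched on both strands. RefSeq and GENCODE place some starts differently, so by the GENCODE positions above the last 6 bases of the MMP7 window, 28 of the MMP14 window and 123 of the TIMP1 window, which is not shown, lie inside the gene. The windows are chr11:102530748-102530997 for MMP7 (minus strand), chr11:102780629-102780878 for MMP10 (minus strand) and chr14:22836335-22836584 for MMP14 (plus strand), written 5′ to 3′ along the gene.
MMP7: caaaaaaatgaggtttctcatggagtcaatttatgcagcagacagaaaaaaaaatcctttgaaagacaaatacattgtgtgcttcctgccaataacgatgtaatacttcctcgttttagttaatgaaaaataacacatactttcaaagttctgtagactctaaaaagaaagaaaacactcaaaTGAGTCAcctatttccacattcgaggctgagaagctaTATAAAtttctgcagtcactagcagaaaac
MMP10: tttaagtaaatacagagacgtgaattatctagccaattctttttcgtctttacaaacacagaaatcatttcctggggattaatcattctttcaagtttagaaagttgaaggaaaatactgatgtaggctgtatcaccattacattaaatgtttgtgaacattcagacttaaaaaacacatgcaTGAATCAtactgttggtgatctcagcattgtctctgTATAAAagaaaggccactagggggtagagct
MMP14: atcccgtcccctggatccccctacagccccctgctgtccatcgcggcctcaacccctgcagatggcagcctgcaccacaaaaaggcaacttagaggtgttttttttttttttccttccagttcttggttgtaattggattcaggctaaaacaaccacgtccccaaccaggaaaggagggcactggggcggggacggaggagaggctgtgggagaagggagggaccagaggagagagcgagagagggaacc

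MMP7 and MMP10 each held 1 AP-1 motif (TGAGTCA and TGAATCA), and in both its first base stood 67 bases before the start. Each also held 1 TATA box, which began 30 bases before the start in MMP7 and 31 in MMP10. Neither motif was in the windows of MMP14 and TIMP1. Only exact matches were sought, so stretches that differ from TGANTCA at 1 base, such as TGAGTAA in the TIMP1 window, were not counted. Among 35116 RefSeq promoters cut to the same length, 6.57% held TGANTCA and 10.7% held TATAAA. A match of letters is a description of the sequence and shows no bound factor.

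Values are TPM as the authors computed them, in which each gene's reads are divided by its length and scaled to a fixed library total, so levels of different genes can be set side by side. Sequencing depth is unknown because TPM does not keep it, so no counting interval is given. Differences are on the log2(TPM + 1) scale, which understates those of weakly expressed genes. Genes at 1 TPM or more numbered 15658, 15745 and 15832 in Control, 16716 in A2ko and 15556 in A8ko, with 15722 and 15954 in C9ko. Mitochondrial transcripts took 23.1% to 26.9% of the TPM in Control, 25.2% in A2ko and 20.6% in A8ko, with 20.2% and 17.9% in C9ko. Markers of squamous epithelium were expressed, with 12 of 12 above the filter on low values. Their sum was 17239 to 18446 TPM in Control, 7474 in A2ko, 8853 in A8ko and 11652 to 11731 in C9ko, with KRT5 the largest single part. The 12 did not fall together. In the limma fit described below, C9ko had 4 called lower (KRT14, KRT6A, DSG3 and KRT5) and 3 higher (KRT8, KRT18 and CDH1). The other 5 were not called, and the shares over all tested genes were 7.42% lower and 22% higher. By the Control range count described below, A2ko had 0 of the 12 above Control and 3 below (KRT14, KRT6A and KRT5). Over all tested genes the A2ko shares were 3.54% above and 1.53% below. A8ko had 1 above and 5 below, against 2.05% and 2.68%. KRT14 was at 313 TPM in A2ko against 3549 to 4286 in Control. Of fibroblast markers 2 of 8 passed (COL1A2 and LUM, with COL3A1 listed at 0 throughout), of leukocyte and macrophage markers 2 of 8 (CD14 and CD68, with PTPRC at most 0.0232 TPM), and of endothelial markers 1 of 6 (CDH5, with KDR listed at 0 throughout). Summed fibroblast markers stood at 4.66 to 5.48 TPM in Control, 4.40 in A2ko, 1.87 in A8ko and 3.14 to 3.59 in C9ko. The leukocyte sum was 42.6 to 50.7 TPM in Control, 60.8 in A2ko, 83.5 in A8ko and 65.8 to 67.3 in C9ko, and the endothelial sum was 3.63 to 4.66, 13.2, 8.67 and 22.3 to 30.3. The leukocyte sum was nearly all CD14 and CD68, which did not move together. CD14 had a mean of 15.7 TPM in Control, 23.2 in A2ko and 16.3 in A8ko, with 52.5 and 50.8 in C9ko. CD68 had a mean of 29.7 TPM in Control, 35.4 in A2ko and 66.3 in A8ko, with 14.1 and 14.3 in C9ko. The endothelial sum was mostly CDH5. The part of these shifts in the values below was not tested, and in such bulk RNA fewer cells expressing a gene cannot be told from less RNA per cell.

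In unedited cells, MMP14 and MMP13 were the most abundant metalloproteinase transcripts. MMP14, the membrane-anchored enzyme that activates pro-MMP2, stood at 72.5 ± 2.17 TPM (SD, n = 3), and MMP13, a collagenase, at 62.0 ± 2.01. The collagenase MMP1 followed at 21.5 ± 2.12, the stromelysin MMP10 at 18.1 ± 0.705, TIMP1 at 14.3 ± 0.351 and matrilysin MMP7 at 8.25 ± 1.41 TPM. These 6 kept this order without overlap of their Control values. MMP12, the macrophage elastase, was at 1.81 ± 0.266 TPM and overlapped MMP2, a gelatinase, at 1.56 ± 0.222. MMP3, another stromelysin, was at 0.395 ± 0.163 TPM. MMP9, the other gelatinase, was listed at 0 in 7 of 7 libraries. The filter asked for 1 TPM in at least 2 distinct libraries, and 8 of the 10 genes passed it, all but MMP3 and MMP9.

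**Figure D1:**
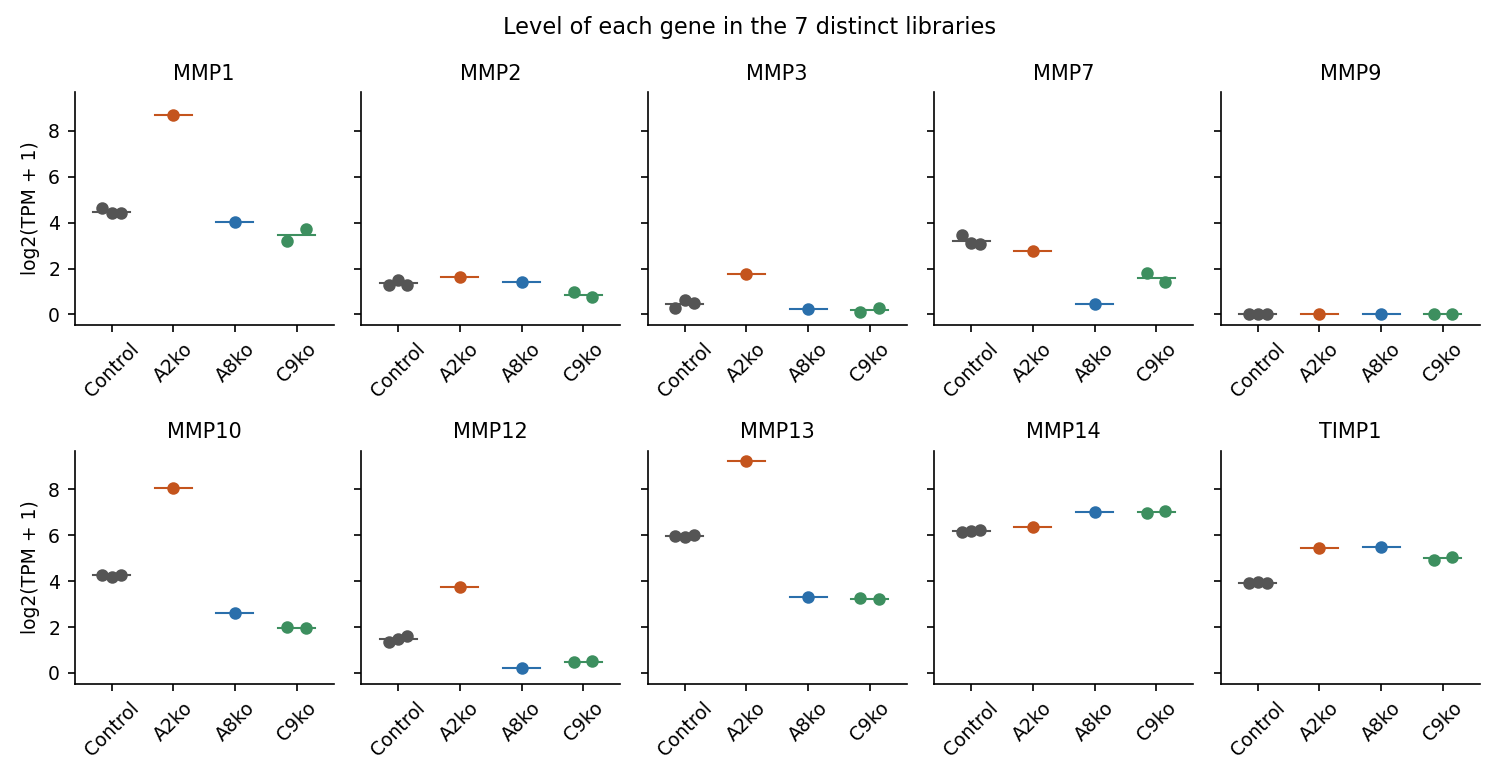
Level of each of the 10 genes as log2(TPM + 1) in the 7 distinct libraries. Each point is a library and each short line a group mean, with 3 Control, 1 A2ko, 1 A8ko and 2 C9ko libraries. MMP1, MMP10, MMP12 and MMP13 stood far above Control in A2ko and below it in A8ko and C9ko, whereas MMP9 was listed at 0 throughout.

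The cluster genes diverged between knockouts. In A2ko MMP1, MMP10, MMP12 and MMP13 stood 6.83 to 19.0 times as high as the Control mean, and in A8ko and C9ko the same 4 genes stood below every Control library. MMP7, at the far end of the cluster, was low in every knockout, and MMP14 and TIMP1 lay above Control in every knockout. The A2ko, A8ko and C9ko comparisons use the same Control libraries, so they are not independent of one another.

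MMP1 cuts fibrillar collagen. It stood at 23.9, 20.2 and 20.3 TPM in Control, 408 in A2ko and 15.5 in A8ko, with 8.30 and 12.2 in C9ko. No knockout library overlapped Control, with A2ko 19.0 times as high as the Control mean, A8ko 1.39-fold lower and the C9ko mean 2.10-fold lower. The log2 differences were 4.19, -0.45 and -1.02. The C9ko value rests on its lower library, since without C9ko 1 it was -0.77, and without Control 1 it was -0.94.

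MMP13, the collagenase with a preference for type II collagen, stood at 62.6, 59.8 and 63.6 TPM in Control, 602 in A2ko and 8.80 in A8ko, with 8.54 and 8.30 in C9ko. In A2ko it was the most abundant of the 9 enzymes, 9.72 times as high as in Control. In A8ko and C9ko it was 7.04-fold and 7.36-fold lower, and the 3 libraries of these knockouts were nearly level. The log2 differences were 3.26, -2.68 and -2.74.

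Among the stromelysins, which cut many non-collagen matrix proteins and activate other proenzymes, MMP10 stood at 18.4, 17.3 and 18.6 TPM in Control, 263 in A2ko and 5.13 in A8ko, with 3.01 and 2.84 in C9ko. The A2ko library was 14.5 times as high as Control, and the C9ko libraries were the lowest, at 6.18-fold below it by their mean. The log2 differences were 3.79, -1.64 and -2.28. MMP3 stood at 0.225, 0.550 and 0.408 TPM in Control, 2.36 in A2ko and 0.168 in A8ko, with 0.0841 and 0.205 in C9ko. It exceeded 1 TPM in A2ko only, and its low values in the other 6 libraries leave folds there poorly defined.

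MMP12, which degrades elastin, stood at 1.56, 1.79 and 2.09 TPM in Control, 12.4 in A2ko and 0.148 in A8ko, with 0.380 and 0.438 in C9ko. The log2 differences were 2.25, -1.29 and -0.99, with no overlap of any knockout with Control. MMP7, a small enzyme without the hemopexin domain that is made by epithelial cells, was not high in A2ko. It stood at 9.87, 7.59 and 7.29 TPM in Control, 5.83 in A2ko and 0.374 in A8ko, with 2.45 and 1.64 in C9ko. A8ko was lowest, 22.1-fold under the Control mean, C9ko was 4.04-fold under it and A2ko 1.41-fold, with log2 differences of -2.74, -1.61 and -0.43. With a pseudocount of 0.1 the A8ko differences became -4.13 for MMP7 and -2.94 for MMP12.

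MMP14 stood at 70.3, 72.5 and 74.7 TPM in Control, 82.3 in A2ko and 128 in A8ko, with 124 and 132 in C9ko. It was 1.76 times as high as Control in both A8ko and C9ko and did not reach a log2 difference of 1 in any knockout (0.18, 0.81 and 0.81). The median of all tested genes itself lay 0.12 above Control in A2ko, 0.09 in A8ko and 0.11 in C9ko, so MMP14 in A2ko was 0.06 above that general shift. MMP2 stood at 1.42, 1.81 and 1.43 TPM in Control, 2.08 in A2ko and 1.70 in A8ko, with 0.971 and 0.690 in C9ko. A8ko lay within the Control range, A2ko just above it, and both C9ko libraries below it, all at or under 2.08 TPM.

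TIMP1, a secreted inhibitor of most of these enzymes, stood above every Control library in all 3 knockouts. It was the only one of the 10 genes to do so with each knockout mean at least 1 log2 unit above the Control mean. It stood at 14.2, 14.7 and 14.0 TPM in Control, 42.7 in A2ko and 44.3 in A8ko, with 29.6 and 32.6 in C9ko, which is 2.98, 3.10 and 2.17 times the Control mean. The log2 differences were 1.51, 1.57 and 1.07, and the C9ko value was 0.95 with median-of-ratios scaling. Over all tested genes, 0.152% stood above Control in this way in every knockout and 0.427% below it, where none of the 10 lay.

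**Figure D2:**
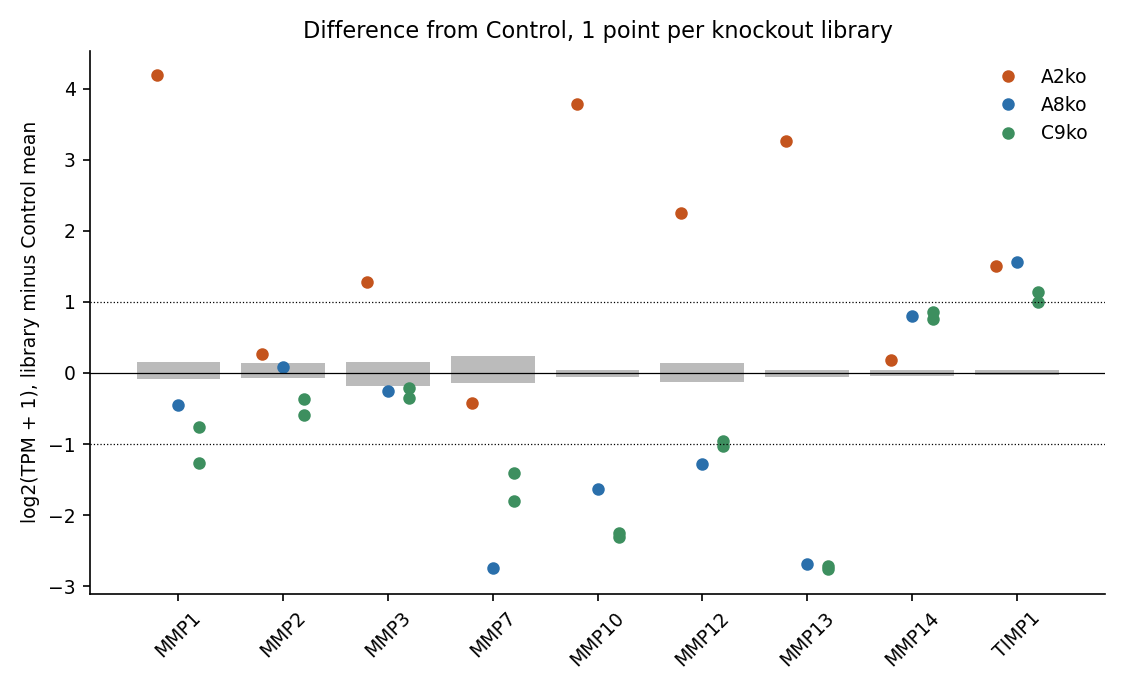
Difference of each knockout library from the Control mean on the log2(TPM + 1) scale for the 9 genes with a value above 0. Points are libraries (orange A2ko, blue A8ko, green C9ko), grey boxes span the 3 Control libraries and dotted lines mark differences of 1 in either direction. The orange points of MMP1, MMP10, MMP12 and MMP13 lie between 2.25 and 4.19, and TIMP1 alone has every point at about 1 or above.

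Counts over the 8 genes that passed the filter are set beside those of all 17100 tested genes, and since the genes were proposed with these values known, nothing is read from them. Here and below, a gene outside the Control range by at least 1 log2 unit had every library of the knockout beyond every Control library. Its knockout mean also differed from the Control mean by at least 1. In A2ko, 5 of 8 lay above the Control range by at least 1 log2 unit and 0 below it, against 3.54% and 1.53% of all tested genes. In A8ko, 1 lay above and 4 below, against 2.05% and 2.68%. In C9ko the same count gave 1 above and 4 below, against 3.33% and 1.78%, and 0 above and 5 below with median-of-ratios scaling, where TIMP1 fell short of the limit and MMP12 passed it. MMP10 and MMP13 lay above by that much in A2ko and below by that much in both A8ko and C9ko, as did 0.146% of all. Without the limit of 1 log2 unit, 7 of the 8 genes lay above every Control library in A2ko and 1 below, where all tested genes gave 50.4% and 26.3%. In A8ko 2 lay above and 5 below (46.9% and 26.4% of all), and in C9ko 2 and 6 (41.1% and 16.4%).

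Because TPM is scaled by length, the 9 enzymes can be summed. Their sum was 188, 181 and 188 TPM in Control, 1378 in A2ko and 159.5 in A8ko, with 147 and 158 in C9ko. The total in A8ko and C9ko was thus a little below Control, and its make-up differed. MMP14 supplied 37.4% to 40.0% of the sum in Control, 5.98% in A2ko and 80.1% in A8ko, with 83.9% and 83.4% in C9ko. MMP13 supplied 32.9% to 33.8% in Control, 43.7% in A2ko and 5.52% in A8ko, with 5.80% and 5.25% in C9ko. MMP1 went from 10.8% to 12.7% in Control to 29.6% in A2ko. The summed level of the 6 cluster genes alone was 107 to 117 TPM in Control, 1293 in A2ko and 30.1 in A8ko, with 22.8 and 25.6 in C9ko.

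**Figure D3:**
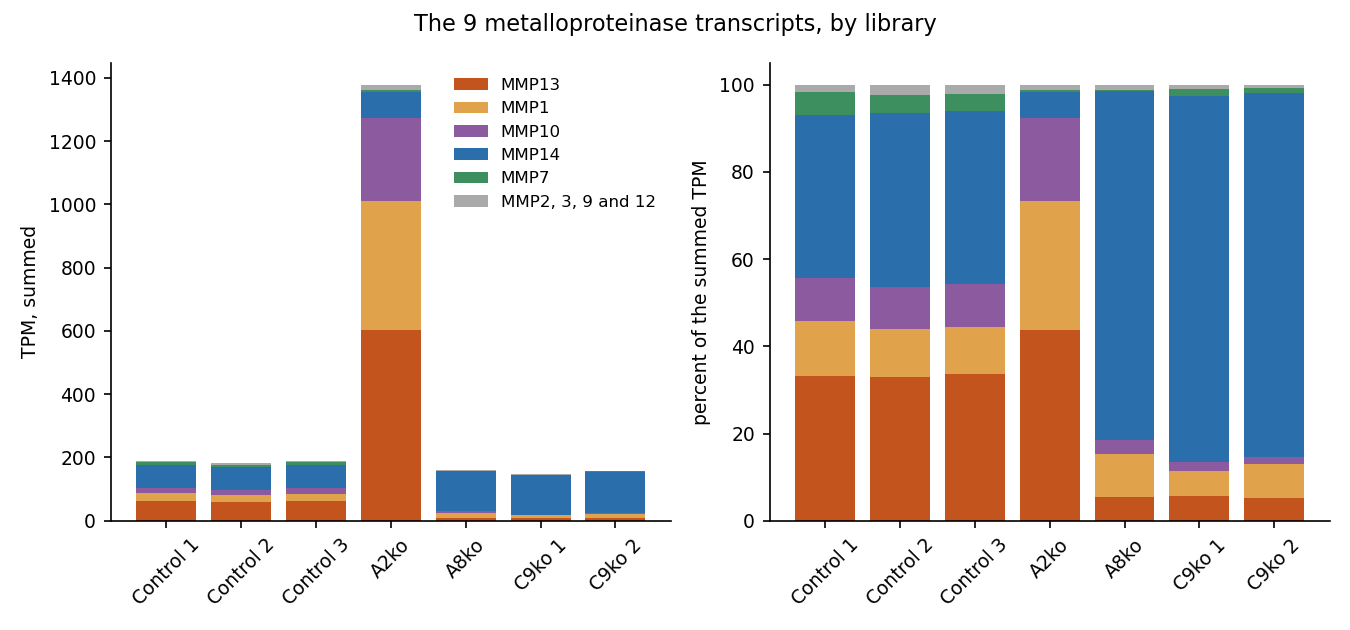
Summed TPM of the 9 metalloproteinase genes in each distinct library (left, stacked bars from 0) and the percent of that sum supplied by each gene (right). A2ko reached 1378 TPM, mostly MMP13, MMP1 and MMP10, whereas MMP14 made up over 80% of the sum in A8ko and C9ko.

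No other tested gene near the cluster on chromosome 11q22 reached a difference of 1 log2 unit. Within 2 Mb of the MMP1 start, 15 genes were tested, of which 5 were metalloproteinases. Of these 5, 4 lay outside the Control range by at least 1 log2 unit in each knockout (MMP7 was the exception in A2ko, MMP1 in A8ko and MMP12 in C9ko). Of the other 10, 0 did so in any knockout. Over all tested genes, 3.54% lay above and 1.53% below in A2ko, and 2.05% and 2.68% in A8ko. In C9ko the shares were 3.33% and 1.78%. With shares this small, 0 of 10 is not read as a result, and the 5 metalloproteinases were selected on these same values. In C9ko 3 of the 10 rose (BIRC3, YAP1 and TMEM123) and 2 fell (CEP126 and CFAP300) in limma's fit. The call for CFAP300 was lost without any 1 of the 5 Control and C9ko libraries, that for CEP126 without Control 2, Control 3 or either C9ko library, and that for TMEM123 without C9ko 2. Their differences ran from -0.61 to 0.67 in A2ko, from -0.17 to 0.37 in A8ko and from -0.54 to 0.62 in C9ko. The largest rise among them in C9ko was that of BIRC3, an inhibitor of apoptosis, from 16.7, 17.5 and 16.4 TPM to 24.7 and 28.3 (log2 difference 0.62, SE 0.08, limma adjusted p = 0.002), and it was at 10.7 TPM in A2ko. YAP1, a coactivator of the Hippo pathway, rose from 65.7 to 68.3 TPM in Control to 84.2 and 86.1 in C9ko (0.35, SE 0.06, limma adjusted p = 0.00508), a call not kept with the replicate number as a block. The calls for CEP126, CFAP300 and TMEM123 were not kept with that block either, and that for CFAP300 was also lost without the filter on low values.

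**Figure D4:**
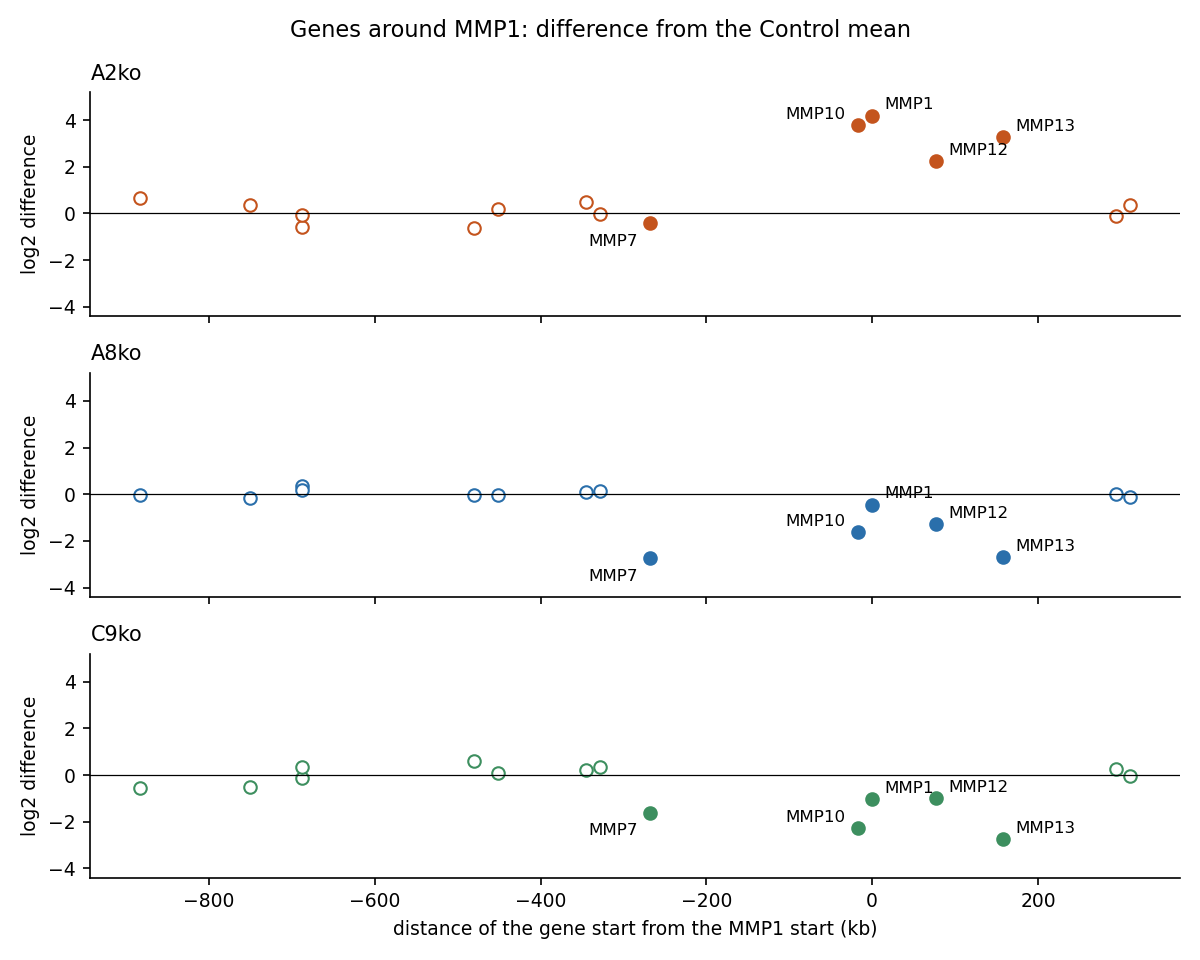
Log2 difference from the Control mean for the 15 tested genes within 2 Mb of the MMP1 start, plotted against the distance of each gene's start from that of MMP1 in kb, with 1 panel per knockout. Filled points are metalloproteinases and open points other genes. The open points stay between -0.61 and 0.67, and the filled points reach 4.19 in A2ko and -2.74 in A8ko and C9ko.

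For related genes, C9ko was tested against Control in limma's fit over all 17100 genes, which called 22% of them higher and 7.42% lower. With median-of-ratios scaling it called 15.8% higher and 12.3% lower, and the counts of each list below stand against these shares. Higher genes made up 74.8% of all calls with TPM as deposited but 56.3% with that scaling, and in A2ko 69.9% and 54.3% of the genes counted. Of the 14 other human metalloproteinase genes examined, 6 passed the filter and 3 were listed at 0 in every library. In C9ko 2 of the 6 rose and 0 fell (1 and 0 with median-of-ratios scaling), beside 22% and 15.8% of all genes higher. MMP15, a membrane-type enzyme related to MMP14, rose from 11.2, 11.3 and 12.3 TPM to 30.3 and 33.9 (log2 difference 1.40, SE 0.08, limma adjusted p = 7.39e-05), and it was at 16.1 TPM in A2ko and 24.2 in A8ko. MMP17 rose by 0.44 (SE 0.13, limma adjusted p = 0.0427), a call lost with median-of-ratios scaling and in fits without Control 2, Control 3 or either C9ko library. It was also lost without mitochondrial transcripts, without the filter and with the replicate block.

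The inhibitors other than TIMP1 included a gene, TIMP3, that diverged in the same directions as MMP10 and MMP13. In C9ko 3 of the 4 tested rose (TIMP2, TIMP4 and RECK) and 1 fell (TIMP3), and 2 and 1 did so with median-of-ratios scaling. TIMP2, which also takes part in pro-MMP2 activation by MMP14, rose from 20.5, 19.2 and 18.2 TPM to 70.3 and 73.4 (1.85, SE 0.07, limma adjusted p = 1.8e-05), and was at 50.3 in A2ko and 57.3 in A8ko. TIMP3, which is bound to the matrix, stood at 3.57, 2.82 and 2.69 TPM in Control, 15.7 in A2ko and 0.631 in A8ko, and fell to 1.18 and 0.677 in C9ko (-1.07, SE 0.16, limma adjusted p = 0.00366). TIMP3 thus lay on opposite sides of Control in A2ko and in the other knockouts. The call for RECK, a membrane-anchored inhibitor, was lost with median-of-ratios scaling and without Control 1, Control 3 or C9ko 1, and that for TIMP4 without Control 1, Control 3 or either C9ko library. Both were lost without the filter, and that for RECK also without mitochondrial transcripts and with the replicate block. Per TPM of TIMP1, TIMP2 and TIMP3 together there were 4.92, 4.95 and 5.40 TPM of the 9 enzymes in Control, 12.7 in A2ko and 1.56 in A8ko, with 1.46 and 1.48 in C9ko.

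Among activators of the proenzymes and their surface partners, 9 of 16 tested genes rose in C9ko and 0 fell (8 and 1 with median-of-ratios scaling). PLAUR, the receptor of urokinase, rose from 19.6, 17.2 and 19.0 TPM to 64.3 and 69.2 (1.79, SE 0.08, limma adjusted p = 2.58e-05). It was at 50.3 TPM in A8ko and 11.6 in A2ko, below every Control library. LCN2, which binds MMP9, rose by 1.51 (SE 0.08, limma adjusted p = 4.67e-05) although MMP9 was listed at 0. In the related ADAM and ADAMTS families 10 of 12 tested genes rose in C9ko and 0 fell. On the log2(TPM + 1) scale the difference was largest for ADAM8, a sheddase, which rose from 8.11, 7.63 and 8.10 TPM to 38.8 and 40.5 (2.18, SE 0.07, limma adjusted p = 1.11e-05). ADAM8 was at 42.5 TPM in A8ko and 7.09 in A2ko. ADAMTS9, a secreted protease listed at 0 in 2 Control libraries and at 0.0278 TPM in the third, rose to 2.11 and 2.57 TPM (1.72, SE 0.17, limma adjusted p = 0.000568), with 0.746 in A8ko, and was listed at 0 in A2ko.

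Of the matrix and surface substrates, 16 of 20 tested genes rose in C9ko and 3 fell (14 and 4 with median-of-ratios scaling). Fibronectin (FN1) rose from 9.06, 7.90 and 8.37 TPM to 30.0 and 36.4 (1.85, SE 0.11, limma adjusted p = 6.47e-05), and was at 24.7 in A8ko and 4.08 in A2ko. The adhesion protein tenascin (TNC) rose by 1.61 (SE 0.06, limma adjusted p = 1.77e-05), and biglycan (BGN), a proteoglycan, fell by 1.80 on the log2 scale (SE 0.15, limma adjusted p = 0.000243). In A2ko 1 substrate gene lay above the Control range by at least 1 log2 unit and 4 lay below it (1 and 5 with median-of-ratios scaling). The shares over all tested genes in A2ko were 3.54% above and 1.53% below. Among the 4 was the matricellular gene CCN2, at 40.4 TPM against 157, 148 and 162 in Control.

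Transcription factors known to act on metalloproteinase promoters rose in 16 and fell in 4 of 26 tested cases in C9ko (13 and 4 with median-of-ratios scaling). The 7 FOS and JUN genes tested, all given here, differed in direction in C9ko, where FOS, FOSB and JUNB fell, FOSL1, FOSL2 and JUN rose and JUND was not called. FOS stood at 141, 149 and 146 TPM in Control, 244 in A2ko and 59.1 in A8ko, and fell to 25.6 and 26.3 in C9ko (-2.44, SE 0.06, limma adjusted p = 5.7e-06). FOSL1 stood at 77.3, 72.1 and 74.3 TPM in Control, 38.9 in A2ko and 256 in A8ko, and rose to 182 and 183 in C9ko (1.28, SE 0.06, limma adjusted p = 3.33e-05). FOSB was below every Control library in each knockout, at 13.7 TPM in A2ko and 8.91 in A8ko, with 4.74 and 4.36 in C9ko against 16.1 to 17.9 in Control. FOSL2 was above every Control library in each, at 44.5 TPM in A2ko and 51.6 in A8ko, with 59.9 and 63.9 in C9ko against 38.1 to 40.6. JUN stood at 22.4 to 27.0 TPM in Control, 26.4 in A2ko and 64.9 in A8ko, with 56.3 and 55.7 in C9ko. JUNB stood at 271 to 298 TPM in Control, 302 in A2ko and 255 in A8ko, with 189 and 203 in C9ko. JUND stood at 24.6 to 34.1, 36.5 and 35.9, with 34.7 and 33.4. ATF3, also on this list, stood at 33.8 to 36.4 TPM in Control, 10.8 in A2ko and 43.7 in A8ko, with 41.2 and 47.6 in C9ko. ETV4, an ETS family factor, rose by 1.20 (SE 0.10, limma adjusted p = 0.000224).

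Cytokines and growth factors that induce metalloproteinases rose in 13 of 15 tested cases in C9ko, and 1 fell. IL6 stood at 12.1, 14.1 and 12.9 TPM in Control, 17.6 in A2ko and 130.5 in A8ko, and rose to 109.7 and 122 in C9ko (3.06, SE 0.08, limma adjusted p = 7.05e-06). The activin subunit INHBA rose from 13.2, 13.3 and 13.1 TPM to 63.5 and 67.3 in C9ko (2.23, SE 0.06, limma adjusted p = 7.32e-06), and was at 60.4 in A8ko and 7.93 in A2ko. IL1A stood at 34.9, 31.4 and 36.7 TPM in Control, 135 in A8ko and 4.30 in A2ko, and rose to 53.9 and 60.0 in C9ko (0.71, SE 0.09, limma adjusted p = 0.00143). The list median was 1.53 in A8ko, 1.52 in C9ko and 0.34 in A2ko, beside 0.09, 0.11 and 0.12 over all tested genes. In A8ko and C9ko these inducers were thus mostly higher while the cluster genes were lower.

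**Figure D5:**
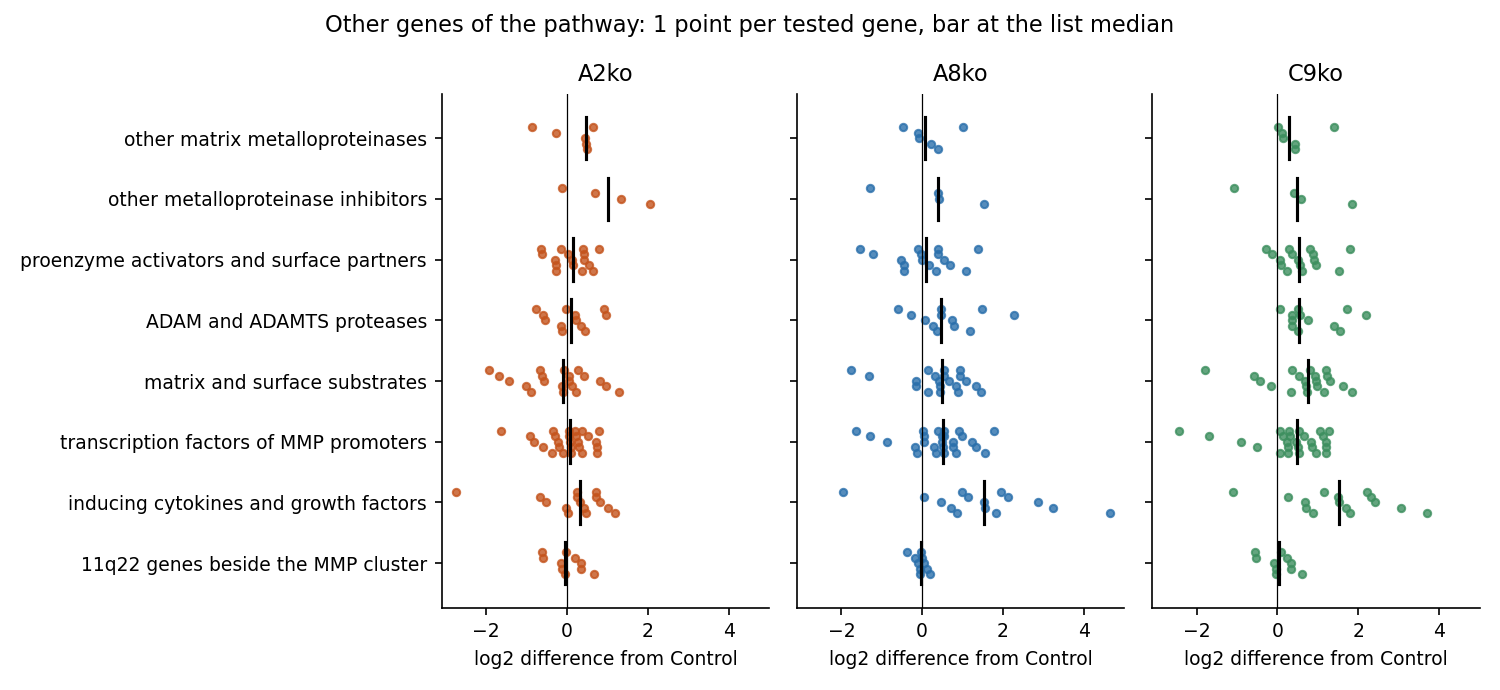
Log2 difference from Control for every tested gene of 8 lists of related genes, with 1 panel per knockout (A2ko and A8ko 1 library each, C9ko the mean of 2) and a black bar at each list median. The cytokine list has medians of 1.53 in A8ko and 1.52 in C9ko. For the genes beside the cluster the medians are -0.04 in A2ko, -0.03 in A8ko and 0.03 in C9ko. Single genes of that list reach 0.67 (CEP126) and -0.61 (BIRC3) in A2ko.

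To see which other genes behaved most like each enzyme, the log2 differences from the Control mean were compared over the 7 distinct libraries by Euclidean distance, among tested genes with a mean of at least 5 TPM over these libraries. MMP10 and MMP13 were each other's nearest gene, at a distance of 1.34. For MMP13 the next was LOXL4, a lysyl oxidase-like gene on chromosome 10, at 1.37, with 24.4 to 26.0 TPM in Control, 156 in A2ko and 1.35 in A8ko, with 4.62 and 5.41 in C9ko. The third, MIR6510 at 2.19, lies inside KRT15 and in its orientation, which leaves its value uncertain. For MMP10 the second and the third were MMP1 (2.23) and LOXL4 (2.23).

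MMP7 had closer neighbours, namely ZNF750 (distance 0.487), a transcription factor of keratinocyte differentiation, SERPINB13 (0.577), an epidermal protease inhibitor, and the kallikrein KLK11 (0.715). ZNF750 stood at 14.1, 14.1 and 14.5 TPM in Control, 8.82 in A2ko and 1.46 in A8ko, with 4.69 and 4.31 in C9ko. The genes nearest to MMP1 were ENSG00000262526 (1.43), whose annotated interval overlaps those of GABARAP and CTDNEP1 on the same strand, the deiodinase DIO2 (1.52) and PLEKHB1 (1.84). All of them exceeded 5 TPM in A2ko alone (38.6, 31.2 and 22.4) and passed the limit on the mean only through that 1 library. Their nearness to MMP1 thus rests largely on A2ko, and in C9ko DIO2 differed by -0.06 against -1.02 for MMP1. PLEKHB1 (0.973), the kinase WNK2 (1.04) and LOXL1-AS1 (1.06) were nearest to MMP12. They too passed the limit on the mean only through A2ko (22.4, 16.1 and 14.4 TPM). Those nearest to TIMP1 were the readthrough locus RNASEK-C17orf49 (0.597), the calcium sensor HPCAL1 (0.616) and RASGRF1 (0.652), an exchange factor of RAS. RASGRF1 stood at 3.65, 4.52 and 4.14 TPM in Control and passed the limit on the mean only through the knockout libraries, where it was higher.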

How the data were processed

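The deposited files give TPM per Ensembl gene, computed by the authors; the submitters' processing notes name hg38, the labels describe TRIzol RNA and dUTP (strand-marking) libraries, and aligner, quantifier and annotation are not given in the sources used here. Identical files (2 pairs, each with 1 column name in both headers) were counted once. Symbols were found for 61463 identifiers and GENCODE 29 positions for 57342. Genes with at least 1 TPM in at least 2 of 7 distinct libraries (17100) were analysed as log2(TPM + 1). C9ko was tested against Control with limma 3.58.1 in R 4.3.3 (all 4 groups, trended eBayes, two-sided, Benjamini-Hochberg over all genes, called under 0.05), and the fit was tested on simulated data. For A2ko and A8ko, with 1 library each, genes outside the Control range and at least 1 log2 unit from its mean were counted.

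The members, gene lists and tests were chosen with earlier results of these data known. Of each list, up to 6 genes called in C9ko and up to 3 outside the Control range in A2ko or A8ko could be named, largest first, and for each member outside that range the 3 nearest genes. Alternatives covered pseudocount, filter, scaling, mitochondrial transcripts, single libraries, identical files and a replicate block.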

Additional observations from a re-analysis of the deposited data

Results flagged for a closer look

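Some genes lay outside the Control range by at least 1 log2 unit in opposite directions in 2 knockouts. No test was made of how far the knockouts differ, A2ko and A8ko being 1 library each, and all comparisons use the same Control libraries. For the cluster genes, the A2ko difference exceeded that of A8ko by 5.43 for MMP10, 3.54 for MMP12 and 5.94 for MMP13, and it exceeded that of C9ko by 5.21 for MMP1, 6.07 for MMP10 and 6.0 for MMP13. For the inhibitor TIMP3 the A2ko difference was 3.35 above that of A8ko and 3.12 above that of C9ko. IL1A went the other way, with an A2ko minus A8ko difference of -4.69.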

How the results depend on the processing

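The 16 differences of at least 1 log2 unit outside the Control range among the 10 genes kept their direction in all 106 recomputed values. Among the 16, the position against the limit of 1 changed only in C9ko, for MMP1 and TIMP1. MMP1 fell short without Control 1 or C9ko 1, and TIMP1 with median-of-ratios scaling (0.95) and without mitochondrial transcripts (0.98). MMP12 in C9ko, which was not among the 16 (-0.99), passed the limit under 5 settings. MMP3 in C9ko passed it with a pseudocount of 0.1 (-1.01). A pseudocount of 0.1 moved MMP3 in A2ko to 2.37, MMP7 in A8ko to -4.13 and MMP12 in A8ko to -2.94. For C9ko, 5038 genes were called, 3301 to 4174 with 1 library left out (3301 without C9ko 2) and 8166 with all 9 files as separate libraries. With the replicate number as a block 3248 were called. Same-numbered Control and C9ko libraries did not deviate together (r of -0.0529 and -0.0124), so they share only a number. Going to a pseudocount of 0.1, or to genes with a mean of at least 5 TPM, took the number outside the Control range from 867 to 1813 and 380 in A2ko, from 809 to 1689 and 412 in A8ko, and from 99 to 230 and 59 for the same direction in all 3 knockouts. Of 41 named genes of the lists called in C9ko, 33 were called under every alternative run and 0 reversed.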

Other observations

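The pattern of MMP10 and MMP13 (at least 1 log2 unit above Control in A2ko and at least 1 below it in both A8ko and C9ko, with no overlap) was shown by 25 of 17100 tested genes, or 0.146%. The pattern and the genes named here were chosen after the values were seen. When the 25 were ordered by the A2ko difference minus the mean of those of A8ko and C9ko, MMP13 (5.97) and MMP10 (5.75) came before LOXL4 (5.39). The others included EYA2, a transcriptional coactivator, at 2.41 to 2.97 TPM in Control, 15.4 in A2ko and 0.444 in A8ko, and 0.272 and 0.292 in C9ko. PRAME, a cancer-testis antigen, lay between 1.99 and 2.36 TPM in Control, with 11.8 in A2ko and 0.149 in A8ko, and 0.417 and 0.521 in C9ko.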
